A study of Mus musculus with 32 samples.

Results

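The potassium channel genes of the mouse amygdala were taken as every gene symbol that starts with Kcn followed by a letter and that reached a summed exon count of 260 over 26 amygdala libraries. Of 98 such symbols 85 met this minimum, out of 25239 genes in the tables, of which 15520 reached the same count. The choice used total counts and no comparison between groups. Just outside it were Kcnv2 with 111 counts, Kcnk7 with 105, Kcne3 with 93 and Kcna10 with 77, and just inside were Kcnn4 with 269, Kcnrg with 385, Kcnq1 with 440 and Kcnk5 with 471. All 85 also passed the low-count filter of the tests described here, so no member was dropped for a low value in a given group.

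The mice were wild type. 4-thiouridine (4sU), a nucleoside that cells build into new RNA, was injected stereotaxically at 100 mM in DMSO, or DMSO was injected without it, 24 h before RNA was taken from the amygdala of both sides and alkylated, a treatment after which incorporated 4sU is read as a T-to-C conversion. The libraries were from baseline mice without stress (5 with 4sU and 4 with DMSO), mice under acute stress (5 with 4sU and 5 with DMSO) and mice under chronic stress (4 with 4sU and 3 with DMSO). The labels used here give neither the kind, length and timing of stress nor the age and sex of the mice. They do not say whether replicate libraries came from separate mice, and p-values therefore measure only how these libraries vary, which may be technical.

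Potassium channels let potassium leave or enter the cell and so set the resting potential, the shape of the action potential and the firing pattern of neurons. The voltage-gated alpha subunits, with the KCNQ and EAG families, open on depolarisation, and silent modifier subunits join some of them without forming a channel of their own. Calcium- and sodium-activated channels open after activity, inward rectifiers and tandem-pore channels hold the resting potential, and auxiliary subunits change the gating and placing of the pores. In the amygdala, which has a part in learned fear, potassium channels are known to limit the firing of projection neurons and interneurons.

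Libraries held 16150316 to 21228741 exon counts. Potassium channel genes took between 0.394% and 0.578% of them, with the low end in library 2 of the acute DMSO group and all other libraries at 0.495% or above. A division that follows neither stress nor injection alone ran through the data: in the 10 baseline and acute 4sU libraries the mean of 8 oligodendrocyte markers was 8.48 to 9.08 on the log2(CPM + 0.5) scale, and in the other 16 it was 9.59 to 10.7. CPM here are exon counts scaled to library size, with TMM factors over all 26 libraries. The markers also showed uneven neuronal and neighbouring tissue: the mean of 8 glutamatergic markers was 3.22 to 4.15 in acute DMSO libraries 1, 3 and 4 and 3.88 in chronic DMSO library 1 but 5.27 or above in 20 of the rest, and the mean of 8 striatal projection neuron markers, genes of the neighbouring striatum and also of some amygdala neurons, ranged from 5.96 to 9.11. No marker of glutamatergic or GABA neurons was at 0 in any library. In whole tissue, fewer cells of a type and less RNA per cell cannot be told apart.

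Auxiliary subunits and a glial inward rectifier were among the channel genes expressed most. Per kilobase of exon, the mean level over the 26 libraries was 96.5 CPM per kb for Kcnab2, a cytoplasmic beta subunit of Kv1 channels, and 84.4 for Kcnip2, a calcium sensor bound to Kv4 channels. Kcnj10, the main inward rectifier of astrocytes and also of oligodendrocytes, was at 51.8 CPM per kb, Kcnab1, another Kv1 beta subunit, at 48.6 and Kcnj4, a strong inward rectifier of forebrain neurons, at 48.2. The SDs over libraries of these 5 genes lay between 14.6 and 18.7 CPM per kb and include differences between groups. Whether genes of like level differed, such as Kcnab2 and Kcnip2 or Kcnj10, Kcnab1 and Kcnj4, was not tested. Of the 85 genes 82 averaged at least 1 CPM, 56 at least 10 and 19 at least 100. The 5 highest by CPM without regard to length, not all the same genes as those above, held 30.9% of the summed CPM.

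**Figure D1:**
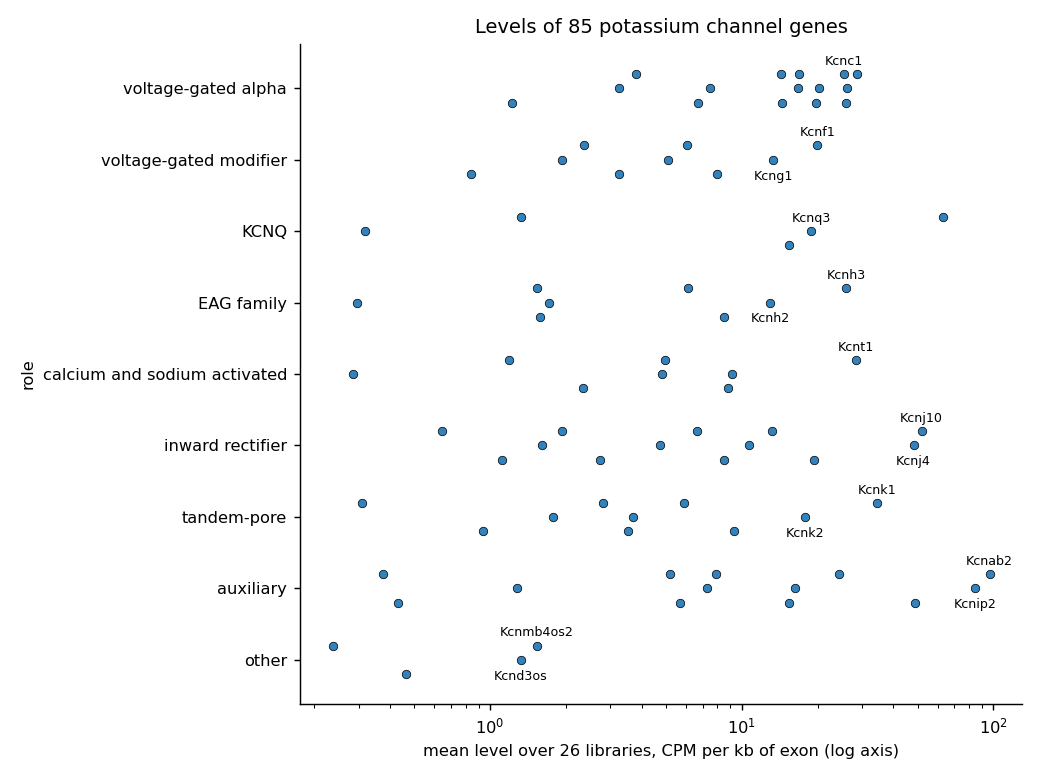
Mean level of each potassium channel gene over 26 libraries, in CPM per kb of exon on a log axis, by role, with some of the higher genes of each role named. Each point is a gene, and Kcnab2 and Kcnip2 lie furthest to the right at 96.5 and 84.4 CPM per kb.

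By role, the 15 voltage-gated alpha subunits and the 5 KCNQ genes had the highest median levels, at 16.8 and 15.4 CPM per kb. Kcnd2 (26.1 CPM per kb), which carries the A-type current of dendrites, Kcna1 (25.9), an axonal channel, and Kcnc1 (25.5), which gives fast-spiking neurons their brief action potentials, were among the highest alpha subunits. The median was 7.87 CPM per kb for 13 auxiliary genes, 6.63 for 13 inward rectifiers, 5.10 for 9 modifier subunits, 4.89 for 8 calcium- and sodium-activated channels, 3.92 for 8 EAG genes and 3.61 for 10 tandem-pore channels. The sodium-activated Kcnt1 (28.5), the EAG-family Kcnh3 (25.97), the tandem-pore Kcnk1 (34.6) and the modifier Kcnf1 (19.9) stood highest within their roles. The 4 remaining symbols, the noncoding Kcnd3os, Kcnmb4os2 and Kcnq1ot1 and the regulator Kcnrg, had a median of 0.894 CPM per kb. Counts of Kcnd3os, Kcnmb4os2 and Kcnq1ot1 and of their partners Kcnd3, Kcnmb4 and Kcnq1, and of the overlapping pair Kcnip1 and Kcnmb1, are uncertain because the strand setting of the counting was not among the sources used.

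The levels that varied most between libraries belonged to a choroid plexus pair. Kcne2 and Kcnj13 encode an auxiliary subunit and an inward rectifier of the choroid plexus epithelium, and they were up to 130-fold and 102-fold apart between libraries. In the acute DMSO group Kcne2 was 0.231, 19.0, 6.30, 2.04 and 13.01 CPM in libraries 1 to 5, and Kcnj13 was 0.462, 28.4, 14.1, 4.14 and 25.4 CPM. Both genes were lowest in library 1 and highest in library 2 of that group. In the chronic 4sU group they were 2.08 and 4.21 CPM in library 3 against at least 14.2 and 24.8 CPM in the others. The mean of 8 choroid plexus markers was lowest in the same libraries, at 2.42 in acute DMSO library 1, 4.47 in chronic 4sU library 3 and 4.63 in acute DMSO library 4, and 5.86 or above elsewhere on the log2(CPM + 0.5) scale. Ttr, the most abundant choroid plexus transcript, ranged within the acute DMSO group from 2.31 CPM (library 1) to 5321 CPM (library 2).

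Several members also differed between the libraries highest and lowest in striatal markers. The striatal marker mean was highest in acute DMSO library 1 (9.11), which held 382 CPM of Kcnab1, and lowest in chronic 4sU library 1 (5.96), which held 97.8 CPM of it. Kcnj4 was 35.3 CPM in that chronic library and 136 CPM in that acute one. The sodium-activated Kcnt1 (108 against 239 CPM), the mechanosensitive tandem-pore Kcnk2 (38.1 against 125 CPM) and the M-current gene Kcnq3 (177 against 339 CPM) had the same order in these libraries, which were chosen as the extremes of the markers. The order did not hold throughout: Kcnq3 was lowest, at 89.2 CPM, in acute DMSO library 2 (marker mean 6.82), as was Kcnt1 at 66.1 CPM. Kcnq3 was also 179 CPM in baseline 4sU library 3 (8.52) against 239 CPM in chronic 4sU library 2 (7.01). Other members had the opposite order between the extreme libraries. In chronic 4sU library 1 and acute DMSO library 1, Kcnj6 was 19.5 and 5.25 CPM, Kcnj3 83.1 and 37.6 CPM and Kcnc2 139 and 88.7 CPM. How many members went each way was not counted. Whether tissue make-up accounts for any difference between groups in these genes was not tested.

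**Figure D2:**
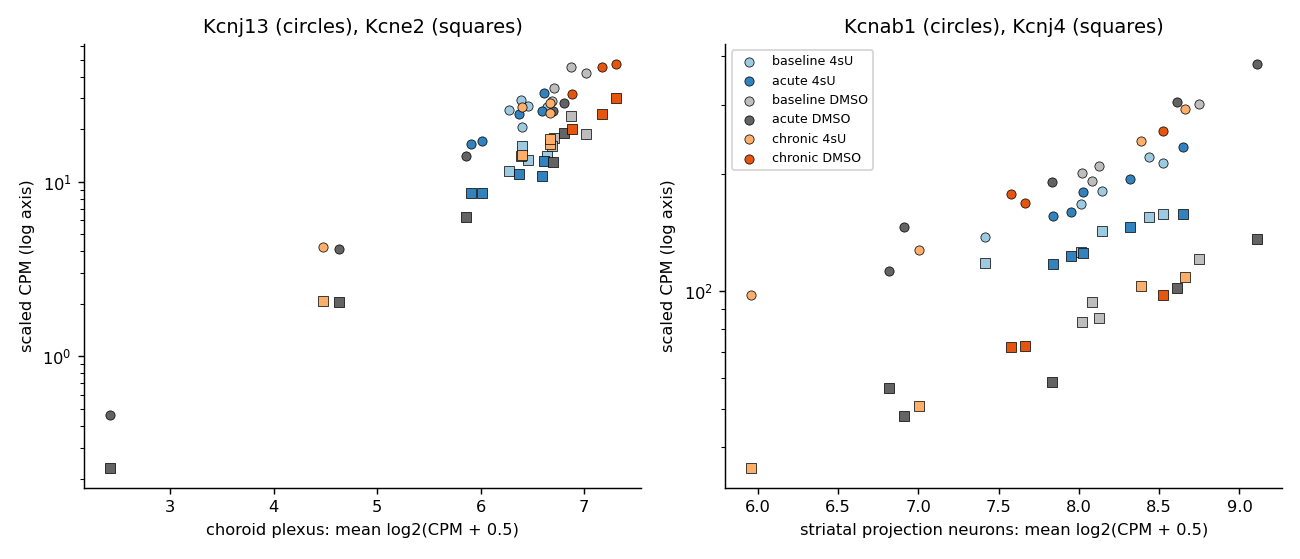
Scaled CPM (log axis) of Kcnj13 and Kcne2 against the mean of 8 choroid plexus markers (left), and of Kcnab1 and Kcnj4 against the mean of 8 striatal projection neuron markers (right), each on the log2(CPM + 0.5) scale. Each symbol is a library coloured by group, with acute DMSO library 1 at the far left of the left panel (2.42) and the far right of the right panel (9.11).

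Acute stress was compared with baseline as the mean effect of both injections. By edgeR's quasi-likelihood test, with Benjamini-Hochberg adjustment over 15995 genes and a threshold of 0.05, 5 rose and 1 fell of 85. These 6 are 7.06% of the members, beside 2.39% of all genes tested (1.48% called higher and 0.913% called lower). The modifier subunit Kcnf1 fell, and the auxiliary subunits Kcne4, Kcne1l and Kcnab3, the tandem-pore channel Kcnk6 and the inward rectifier Kcnj11 rose. None of the voltage-gated alpha, KCNQ, EAG or calcium- and sodium-activated genes passed the test. By the same test 22 members had an unadjusted p under 0.05, 25.9% beside 13.5% of all genes. The median log2 fold change was 0.02 over the members and 0.01 over all genes.

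The promoter windows of 3 of these 6 genes are printed here because they are the start sites of the genes called under acute stress. RefSeq promoter windows, 250 bases before to 50 bases after the start on GRCm38.p6 (mm10), were matched by symbol for 62 of the 85 members, among them Kcnf1 (chr12:17176839-17177138, minus strand), Kcne4 (chr1:78816661-78816960, plus strand) and Kcne1l (chrX:142306149-142306448, minus strand). Kcnab3, Kcnk6 and Kcnj11 are named only. Capitals mark matches to ACANNNTGT, the spaced core of the glucocorticoid receptor's palindromic element, which reads the same on both strands, so a search of either strand finds the same places.
Kcnf1: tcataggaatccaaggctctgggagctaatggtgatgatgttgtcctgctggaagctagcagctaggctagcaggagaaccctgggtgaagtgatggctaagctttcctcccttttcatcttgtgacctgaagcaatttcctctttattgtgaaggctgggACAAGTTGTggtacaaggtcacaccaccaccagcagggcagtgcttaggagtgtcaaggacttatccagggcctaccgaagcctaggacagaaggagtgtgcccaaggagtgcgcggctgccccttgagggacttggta
Kcne4: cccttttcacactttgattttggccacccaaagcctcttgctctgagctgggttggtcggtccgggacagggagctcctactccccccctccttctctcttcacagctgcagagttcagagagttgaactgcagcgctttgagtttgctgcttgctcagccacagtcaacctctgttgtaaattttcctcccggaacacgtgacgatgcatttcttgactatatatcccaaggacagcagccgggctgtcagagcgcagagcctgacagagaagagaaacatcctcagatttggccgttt
Kcne1l: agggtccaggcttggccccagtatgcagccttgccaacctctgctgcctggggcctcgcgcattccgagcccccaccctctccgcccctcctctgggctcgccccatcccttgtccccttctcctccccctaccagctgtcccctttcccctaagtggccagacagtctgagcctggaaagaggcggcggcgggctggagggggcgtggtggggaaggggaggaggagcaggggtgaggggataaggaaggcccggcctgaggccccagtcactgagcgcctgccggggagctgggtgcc
The Kcnf1 window held 1 match, beginning 89 bases before the start, and those of Kcne4 and Kcne1l held none. The core was in 6.98% of the 86 windows of potassium channel genes and in 6.85% of all 32851 windows, and a match by letters is not a binding site. The windows differed in base composition, with 53.0% G and C in Kcnf1, 52.7% in Kcne4 and 69.7% in Kcne1l.

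Kcnf1 encodes an electrically silent subunit that joins Kv2 channels, which limit firing during long depolarisations, and lies on mm10 at chr12:17172100-17176888. In the DMSO mice it was 91.9, 89.4, 97.2 and 91.4 CPM at baseline and 69.1, 45.1, 44.9, 66.7 and 64.5 CPM under acute stress. Every acute DMSO library was below every baseline DMSO library. In the 4sU mice it was 119 to 152 CPM at baseline and 123 to 137 CPM under acute stress, and these groups overlapped. The mean log2 change over both injections was -0.34 ± 0.08 (SE, adjusted p = 0.018), in the DMSO mice it was -0.64 ± 0.11 (adjusted p = 0.0039), and in the 4sU mice it did not pass the test. The difference between injections was 0.60 ± 0.15 on the log2 scale, with an unadjusted p of 0.00076 and an adjusted p of 0.44. Kcnf1 kept its call in all 26 other settings of the mean comparison, leaving out each library included.

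Kcne4 encodes a single-pass subunit that inhibits some KCNQ and Kv1 channels and was among the lowest members, at 1.08 CPM on average. It was 0.481 to 0.951 CPM at baseline and 0.734 to 1.495 CPM under acute stress in the 4sU mice, and 0.661 to 1.26 and 1.07 to 2.02 CPM in the DMSO mice, so both pairs of groups overlapped. Its log2 change was 0.77 ± 0.19 (edgeR, adjusted p = 0.033).

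Kcne1l, the X-linked relative of Kcne1 and an inhibitor of KCNQ channels, was 6.93 to 8.02 CPM at baseline and 8.08 to 10.6 CPM under acute stress in the 4sU mice, where the groups did not overlap. In the DMSO mice it was 5.57 to 6.88 and 6.20 to 9.98 CPM. Its log2 change over both injections was 0.36 ± 0.09 (edgeR, adjusted p = 0.037).

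Kcnab3, a beta subunit of Kv1 channels, was 38.0, 40.8, 38.9 and 33.1 CPM at baseline and 40.2, 63.8, 67.1, 54.9 and 44.7 CPM under acute stress in the DMSO mice, so that only library 1 of the acute group lay inside the baseline range. In the 4sU mice the ranges were 28.2 to 35.0 and 29.9 to 38.2 CPM and overlapped widely. The mean log2 change was 0.35 ± 0.09 (edgeR, adjusted p = 0.042) and that in the DMSO mice 0.56 ± 0.13 (adjusted p = 0.029).

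Kcnj11 forms the pore of channels that close when ATP is plentiful. It was 28.7, 27.6, 24.1 and 29.6 CPM at baseline and 44.1, 28.8, 37.1, 45.1 and 32.4 CPM under acute stress in the DMSO mice, where library 2 alone fell within the baseline range. Its log2 change was 0.29 ± 0.07 over both injections (edgeR, adjusted p = 0.037) and 0.48 ± 0.11 in the DMSO mice (adjusted p = 0.022). Without the 5 libraries lowest by glutamatergic markers these were 0.15 and 0.19 and neither passed (edgeR, adjusted p of 0.114 and 0.155), and the call over both injections was lost in 15 of 19 repeats that left out 1 library. Its partner subunit Abcc8 belongs to a list of 22 genes outside the rule that build or place such channels, and of the 21 tested none passed the test in the acute comparisons. Kcnk6, a tandem-pore channel of low level, was 4.69 to 7.34 CPM at baseline and 6.15 to 10.1 CPM under acute stress in the 4sU mice and 5.23 to 7.55 and 6.79 to 10.1 CPM in the DMSO mice, with a log2 change of 0.47 ± 0.11 (edgeR, adjusted p = 0.025).

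**Figure D3:**
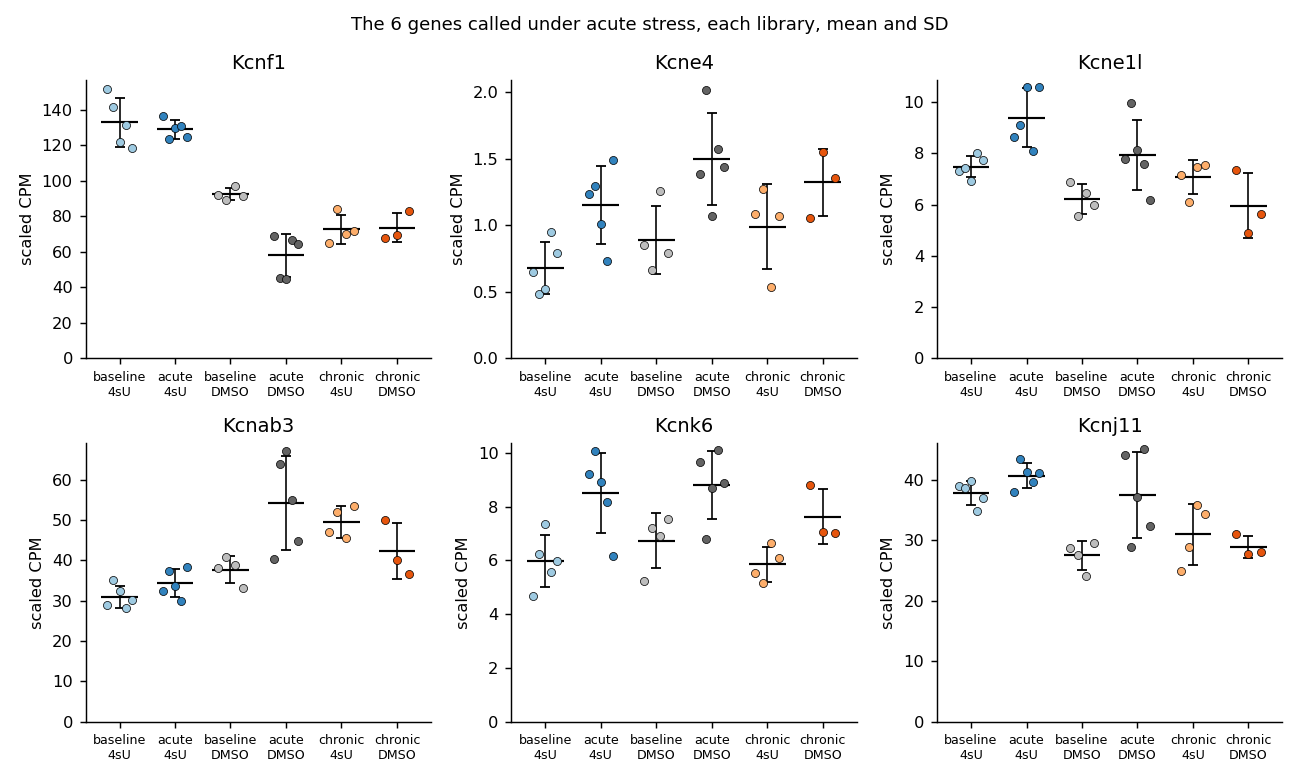
Scaled CPM of the 6 genes called under acute stress in each of 26 libraries, by group, with the mean and SD. Kcnf1 is 44.9 to 69.1 CPM in the acute DMSO libraries and 89.4 to 97.2 CPM in the baseline DMSO libraries, 119 to 152 CPM in the baseline and acute 4sU groups and 65.1 to 84.2 CPM in the chronic 4sU group.

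Within each injection edgeR called fewer members than in the mean comparison, though in the DMSO mice not fewer of all genes. DESeq2 called 7 members in the DMSO mice, beside 4.83% of all genes. In the DMSO mice 2 members rose (Kcnab3 and Kcnj11) and 1 fell (Kcnf1) by edgeR, 3.53% of members beside 2.51% of all genes. An unadjusted edgeR p under 0.05 was found there for 23 members, 27.1% beside 16.5% of all genes. In the 4sU mice none passed the edgeR test, beside 0.269% of all genes. DESeq2 also called none, beside 0.585% of all genes. At an unadjusted edgeR p under 0.05 were 4 members, 4.71% beside 4.08% of all genes. The difference between injections was called for no member and 0% of all genes by edgeR. DESeq2 called no member, beside 0.133% of all genes. An unadjusted edgeR p under 0.05 was found for 6 members, 7.06% beside 5.73% of all genes. Values of the acute and baseline groups did not overlap for 2 members in the 4sU mice (Kcne1l and the tandem-pore Kcnk5, 2.35% beside 2.15% of 15520 genes) and for 3 in the DMSO mice (Kcnf1, Kcnip1 and Kcnj13, 3.53% beside 5.56%). Kcnk5 was 0.982 to 1.201 CPM at baseline and 0.108 to 0.775 CPM under acute stress, and its log2 change of -0.89 ± 0.38 did not pass the edgeR test (adjusted p = 1.00). Beside these calls, 6 of the 8 oligodendrocyte markers rose in the mean comparison and 7 of 8 in the DMSO mice. Their part in the channel results was not tested.

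The calcium-activated Kcnma1 and Kcnn3, which carry after-spike currents, did not pass the test under acute stress. Library 2 of the acute DMSO group was the lowest of its group for the large-conductance calcium-activated Kcnma1 (20.4 CPM beside 63.4 to 85.5 CPM at baseline) and the small-conductance Kcnn3 (11.5 beside 35.9 to 39.2 CPM). The log2 changes were 0.01 ± 0.17 for Kcnma1 and 0.05 ± 0.17 for Kcnn3 (edgeR, adjusted p of 0.99 and 0.95), intervals that leave room for changes in either direction.

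The G-protein-gated subunits Kcnj3 and Kcnj6, through which many inhibitory receptors act, had log2 changes of -0.10 ± 0.13 and -0.05 ± 0.26 (edgeR, adjusted p of 0.81 and 0.96). Kcnj6 was 28.2 CPM in acute DMSO library 5 and 5.25 to 7.40 CPM in libraries 1 to 4. In the chronic 4sU group it was 19.5 and 21.1 CPM in libraries 1 and 2 and 6.88 and 6.91 CPM in libraries 3 and 4. The glutamatergic marker mean was 6.18 in acute DMSO library 5 and 6.04 and 5.96 in those chronic 4sU libraries 1 and 2, and 4.81 and 4.85 in libraries 3 and 4, but acute DMSO library 2, at 5.98, was low in Kcnj6. The steadiest members were Kcna6 and Kcnk1, with SDs over the 26 libraries of 0.14 and 0.16 on the log2 scale and log2 changes under acute stress of 0.02 ± 0.06 and 0.17 ± 0.06 (edgeR, adjusted p of 0.95 and 0.12).

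The number of calls rested on the libraries included. Leaving out each library in turn gave 1 to 11 calls in the mean comparison, with 1 call without acute 4sU library 2, acute DMSO library 4 or baseline 4sU library 1 and 11 without acute DMSO library 2. In the DMSO mice the count ranged from 1 (without acute DMSO library 4 or baseline DMSO library 1, 2 or 3) to 8 (without acute DMSO library 1 or 2). Shares of all genes in these leave-outs are not reported here, so the counts do not show whether members moved more than other genes. With the 5 lowest libraries by glutamatergic markers left out, acute DMSO libraries 2 and 5 alone stood for their group. Beside 6.84% and 14.7% of all genes, 17 members were then called in the mean comparison and 25 in the DMSO mice. Among these were Kcnt1, with a log2 change of -1.02 ± 0.15 in the DMSO mice (edgeR, adjusted p = 0.0013), and Kcnab2 with 0.59 ± 0.10 (adjusted p = 0.0024), and the 2 remaining libraries were among those with the lowest striatal markers (6.82 and 6.91). Each of Kcne4, Kcne1l, Kcnab3, Kcnj11 and Kcnk6 lost its call in the mean comparison in at least 7 of the 19 leave-outs. The call was lost in 14 for Kcnab3, 13 for Kcne1l and 10 for Kcne4. With 3′ UTR reads these last genes, Kcnab3, Kcne1l and Kcne4, lost it as well, and Kcnj11 and Kcnk6 did not both keep it. Kcne1l and Kcne4 also lost it without the low-count filter and with the replicate block.

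Chronic stress in the DMSO mice was compared within the side of the division that both groups share. The edgeR test called none of the 85 members and 0% of 16096 genes. Its unadjusted p was under 0.05 for 4 members, 4.71% beside 5.67% of all genes. Beside 0.0716% of all genes, DESeq2 called 2 members. These were the Kv2 modifier subunits Kcns3, which was 3.03 to 6.07 CPM at baseline and 10.7, 8.73 and 7.69 CPM under chronic stress, and Kcng1, which was 24.8 to 27.8 CPM at baseline and 13.1, 14.3 and 19.7 CPM. The groups did not overlap for either gene. Their log2 changes in edgeR were 1.17 ± 0.20 (adjusted p = 0.30) and -0.70 ± 0.16 (adjusted p = 0.50), and without baseline DMSO library 3 edgeR called 1 member. Kcnf1 was 67.9, 69.8 and 82.9 CPM under chronic stress against 89.4 to 97.2 CPM in the same baseline DMSO libraries that served the acute comparison, a log2 change of -0.32 ± 0.09 (edgeR, adjusted p = 0.64). In all, 9 members did not overlap between these groups, 10.6% beside 7.88% of 15520 genes. Of the 21 partner genes tested none passed.

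The comparisons that cross the division called many members, as they did many genes. Under chronic stress in the 4sU mice 14 members rose and 25 fell, 45.9% beside 56.5% of all genes (26.9% called higher and 29.6% called lower). Between 4sU and DMSO at baseline 19 were higher and 6 lower with 4sU, 29.4% beside 41.9% of all genes (21.1% higher and 20.7% lower). These comparisons share the baseline 4sU libraries. In both, all 8 oligodendrocyte markers were called, 8 rising in the first and 8 lower in the second, with median log2 differences of 1.46 and -0.95. The effect of 4sU or stress in these comparisons cannot be told apart from the division between the libraries. For 4sU against DMSO under chronic stress, which does not cross it, no member was called by edgeR or DESeq2. Of all genes edgeR called 0.137% and DESeq2 0.812%. There 8 members had an unadjusted edgeR p under 0.05, 9.41% beside 9.16% of all genes. Values did not overlap for 5 members, 5.88% beside 8.74% of all genes.

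The members that separated the 10 baseline and acute 4sU libraries from the other 16 without overlap were 11, 12.9% beside 20% of 15520 genes. Of these, 10 were higher in the 10 libraries (9.84% of all genes were) and 1 was lower (10.2% of all genes were). Kcnh3, an EAG-family channel of forebrain neurons that opens below the firing threshold, was 139 to 182 CPM in the 10 libraries and 42.7 to 102 CPM in the other 16, and Kcnh2, a relative with slow closing, was 65.7 to 87.1 against 43.1 to 60.7 CPM. The G-protein-gated rectifier subunit Kcnj9 was 79.9 to 103 against 50.5 to 76.3 CPM, and the acid-sensitive tandem-pore channel Kcnk3 was 14.8 to 21.7 against 7.70 to 14.3 CPM. The silent subunits Kcnf1 (119 to 152 against 44.9 to 97.2 CPM), Kcng1 (38.3 to 58.1 against 9.39 to 27.8 CPM) and Kcns1 (10.5 to 14.9 against 3.74 to 9.53 CPM), with Kcnip3 and Kcnk12, were also in the higher set. The Kv4 partner Kcnip4 was the lower one, at 29.5 to 42.1 against 47.6 to 57.6 CPM.

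**Figure D4:**
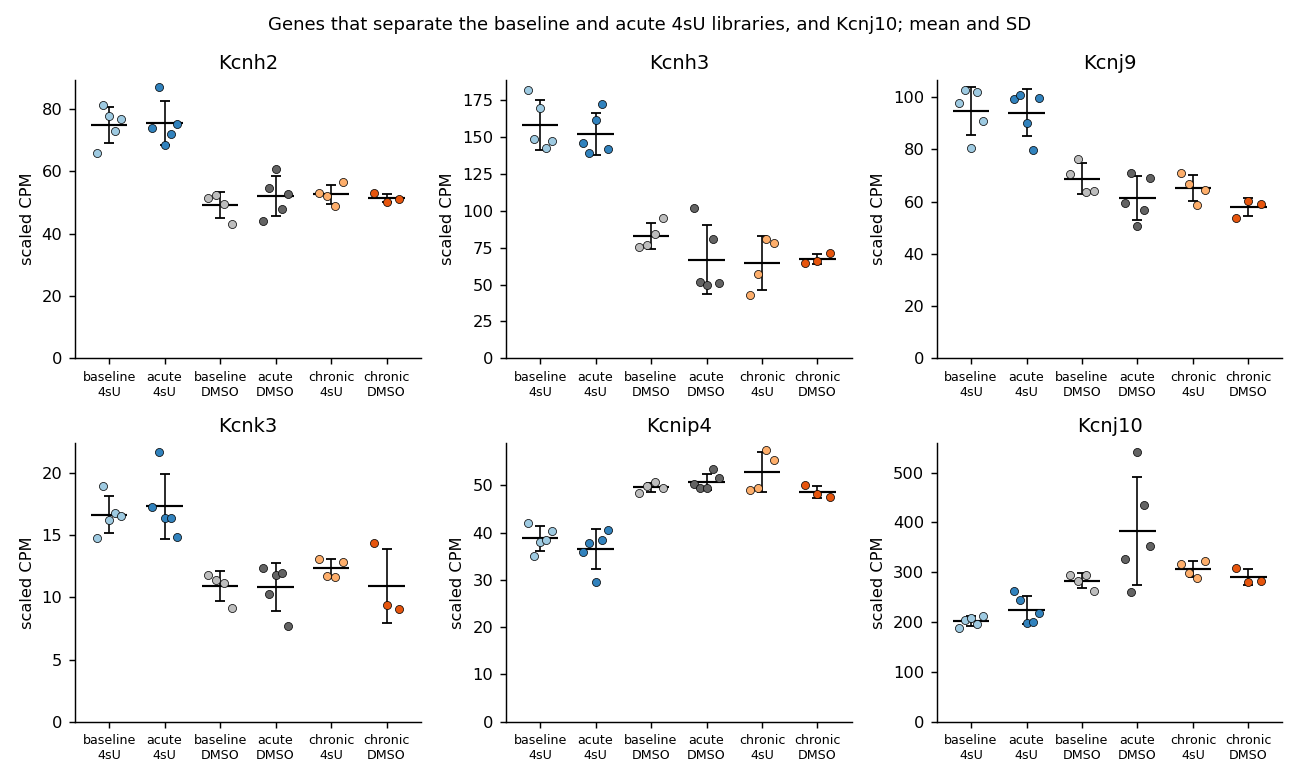
Scaled CPM of Kcnh2, Kcnh3, Kcnj9, Kcnk3, Kcnip4 and Kcnj10 in each of 26 libraries, by group, with the mean and SD. The baseline and acute 4sU libraries stand above the other 16 for the first 4 genes (139 to 182 against 42.7 to 102 CPM for Kcnh3) and below them for Kcnip4.

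Among the members that rose under chronic stress in the 4sU mice was the glial rectifier Kcnj10. It was 188 to 212 CPM in the baseline 4sU libraries and 289 to 323 CPM in the chronic 4sU ones, without overlap, a log2 change of 0.58 ± 0.05 (edgeR, adjusted p = 4.1e-08). The axonal Kv1 subunits Kcna1 (0.46 ± 0.06, adjusted p = 5.1e-06) and Kcna2 (0.50 ± 0.06, adjusted p = 1.5e-06) rose too, as did the fast-spiking Kcnc2 by 0.46 ± 0.12 (adjusted p = 0.0034) and the silent subunit Kcng4 by 1.41 ± 0.21 (adjusted p = 1.6e-05). Among those that fell were Kcng1 (-1.36 ± 0.14), Kcnh3 (-1.32 ± 0.15), Kcns1 (-1.11 ± 0.12), Kcnk12 (-1.18 ± 0.20) and Kcnf1 (-0.89 ± 0.08), all at an adjusted p of 5.3e-05 or below, and Kcnk12 lost the call with 3′ UTR reads. By role, 3 of 8 EAG genes fell and none rose, 5 of 9 modifiers fell and 2 rose, 3 of 10 tandem-pore channels fell and none rose, and 4 of 15 alpha subunits rose and 3 fell, beside 26.9% of all genes called higher and 29.6% called lower. These counts per role are small and several are near those shares. Of the partner genes 4 rose and 10 fell of 21, beside the same shares of all genes, Hcn2, a channel of the hyperpolarisation-activated current, among those that fell (-0.46 ± 0.09, edgeR, adjusted p = 0.00026) and Ank3, the scaffold of the axon initial segment, among those that rose (0.36 ± 0.05, adjusted p = 1.8e-05).

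For the same genes the DMSO mice, whose comparison does not cross the division, gave log2 changes that did not pass the test. The test of the difference in chronic stress effect between injections called 24 members, 8 more positive and 16 more negative in the 4sU mice, 28.2% beside 38% of all genes. Kcnj10 differed by 0.54 ± 0.08 on the log2 scale (edgeR, adjusted p = 4.7e-05), and in the DMSO mice it was 262 to 295 CPM at baseline and 280 to 308 CPM under chronic stress. Kcns1 differed by -1.18 ± 0.18 (adjusted p = 5.9e-05) and Kcnh3 by -1.02 ± 0.23 (adjusted p = 0.0025). This difference crosses the division too.

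Between 4sU and DMSO at baseline Kcng2 (1.48 ± 0.49 on the log2 scale), Kcns1 (1.13 ± 0.19), Kcnk12 (1.08 ± 0.19), Kcng1 (0.96 ± 0.22) and Kcnh3 (0.96 ± 0.17) were the members furthest higher with 4sU, with edgeR adjusted p from 0.0001 to 0.021. With 3′ UTR reads in place of the gene counts Kcng2 (0.59, adjusted p = 0.33), Kcnk12 (0.18, adjusted p = 0.80) and Kcng1 (0.53, adjusted p = 0.071) lost the edgeR call, and Kcns1 and Kcnh3 kept it. Kcnab2 was 401 to 480 CPM in the 4sU libraries and 262 to 336 CPM in the DMSO libraries, a log2 difference of 0.58 ± 0.11 (adjusted p = 0.00037). Kcnj10 (-0.47 ± 0.14, adjusted p = 0.013) and Kcng4 (-0.70 ± 0.26, adjusted p = 0.040) were lower with 4sU. Both lost the call with 3′ UTR reads, and Kcng4 also with the replicate block and in 7 of 19 repeats that left out 1 library. Of the 21 partner genes 7 were higher and 1 lower, beside 21.1% and 20.7% of all genes, Abcc8 (0.58 ± 0.12, adjusted p = 0.00052) and Hcn2 (0.61 ± 0.11, adjusted p = 0.00018) among the higher.

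T-to-C conversion, the sign of RNA made after the injection, was read in 3′ UTR intervals. Of the 85 members 81 had an interval and 55 had at least 2000 covered T positions on average, with some in every library. The rates were low: over all genes a library's overall rate was 0.0400% to 0.0778% with 4sU and 0.0228% to 0.0318% with DMSO, which is the background. At baseline 3 members were above the DMSO background by the edgeR test on conversions, 5.45% beside 7.33% of 8662 genes. Under acute stress 8 were, 14.5% beside 11.8%, and under chronic stress 12, 21.8% beside 14.3%. These states have different numbers of libraries and different overall rates, so the counts do not rank the states. The comparisons at baseline and under acute stress also cross the division between libraries, and that under chronic stress does not. Where they cross it, an effect of 4sU cannot be told apart from the division. The members' median excess of the rate with 4sU over that with DMSO was 0.00423, 0.0093 and 0.0124 percentage points at baseline, acute and chronic stress, and that of all genes was 0.00367, 0.00654 and 0.012.

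The members called in all 3 states were the fast-spiking alpha subunit Kcnc2, the Kv1 beta subunit Kcnab2 and the acid-sensitive tandem-pore channel Kcnk9. For Kcnab2 the rate was 0.0635%, 0.0509%, 0.0542%, 0.0839% and 0.0541% in the baseline 4sU libraries and 0.0220%, 0.0326%, 0.0303% and 0.0174% in the baseline DMSO libraries. All 5 libraries with 4sU lay above all 4 without. It pooled 430 conversions in 697264 covered T positions against 94 in 365141, a rate of 0.0617% against 0.0257%, and the log2 difference was 1.26 ± 0.28 (edgeR, adjusted p = 0.00015). Under chronic stress its rate was 0.0724%, 0.104%, 0.0813% and 0.147% with 4sU and 0.0338%, 0.0323% and 0.0438% with DMSO, again without overlap.

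For Kcnc2 the pooled rate was 0.0673% with 4sU and 0.0231% with DMSO at baseline, 0.0794% and 0.0181% under acute stress and 0.0828% and 0.0247% under chronic stress. Its log2 differences were 1.56 ± 0.35, 2.17 ± 0.32 and 1.78 ± 0.38, with edgeR adjusted p of 0.00022, 4.6e-10 and 3.8e-05. The libraries overlapped at baseline, with 0.0359% as the lowest with 4sU and 0.0408% as the highest with DMSO, and under acute stress, where 4sU library 5 at 0.0202% lay below DMSO libraries at 0.0289% and 0.0243%, but not under chronic stress. Kcnk9 had pooled rates of 0.0690% and 0.0284% at baseline, 0.0730% and 0.0169% under acute stress and 0.103% and 0.0186% under chronic stress, with log2 differences of 1.24 ± 0.36, 2.09 ± 0.36 and 2.45 ± 0.44 (edgeR, adjusted p of 0.011, 1.9e-07 and 8.6e-07). Its 4 chronic 4sU libraries were 0.0945%, 0.0806%, 0.115% and 0.122%, and its 3 chronic DMSO libraries 0.0172%, 0.0168% and 0.0217%. At baseline its lowest 4sU library (0.0457%) lay below its highest DMSO library (0.0530%), and under acute stress likewise (0.0297% and 0.0307%).

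**Figure D5:**
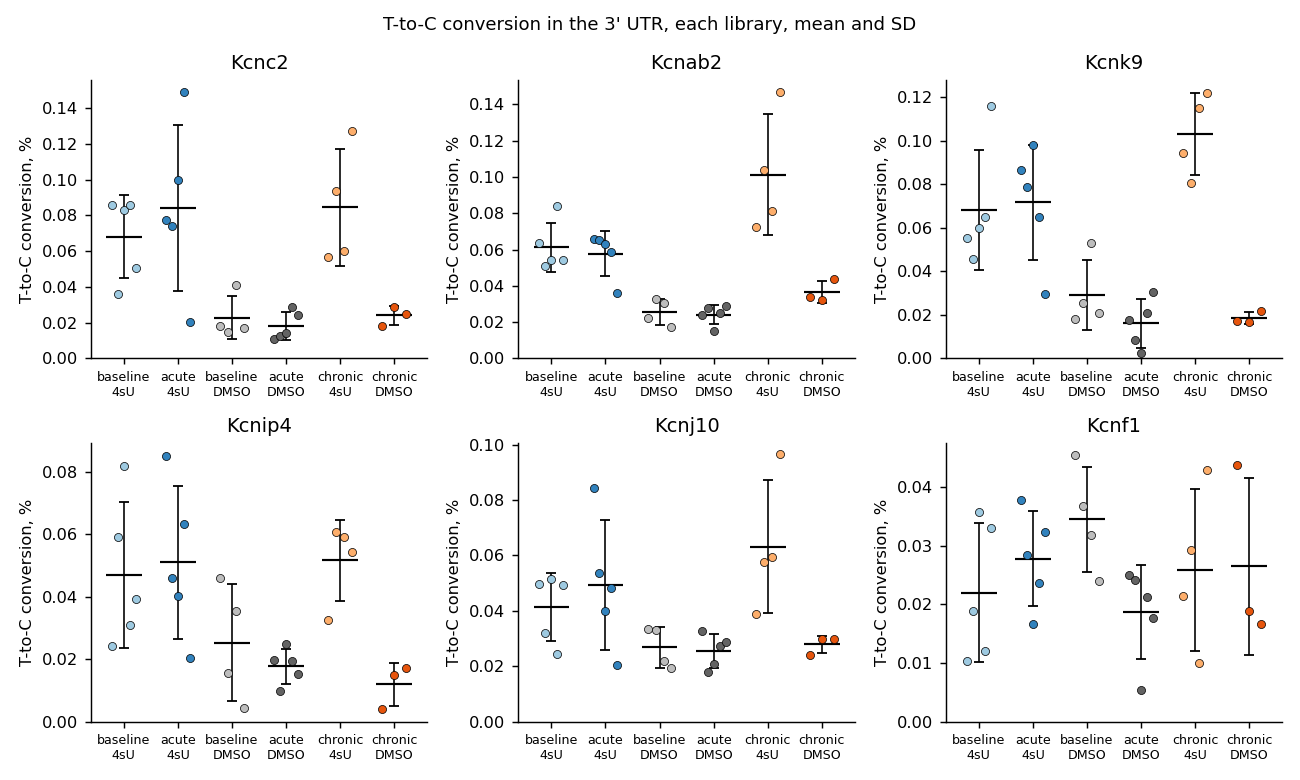
T-to-C conversion rate (percent of covered T positions) in the 3′ UTR of 6 potassium channel genes in each of 26 libraries, by group, with the mean and SD. Kcnab2 is 0.0509% to 0.0839% in the baseline 4sU libraries and 0.0174% to 0.0326% in the baseline DMSO libraries, and Kcnf1, called in no state, shows no such separation.

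Called under both acute and chronic stress, but not at baseline, were 5 members, Kcnj10, Kcna1 and Kcnip4 among them. Whether they differed between states was tested separately. Kcnj10 had a pooled rate of 0.0505% with 4sU and 0.0253% with DMSO under acute stress (log2 difference 0.95 ± 0.25, edgeR, adjusted p = 0.0019) and 0.0635% and 0.0279% under chronic stress (1.18 ± 0.30, adjusted p = 0.0012). Kcna1 had 0.0393% and 0.0204% under acute stress (0.92 ± 0.27, edgeR, adjusted p = 0.0080) and 0.0484% and 0.0224% under chronic stress (1.11 ± 0.32, adjusted p = 0.0055). Kcnip4 had 0.0501% and 0.0174% under acute stress (a 2.88-fold ratio of the pooled rates, edgeR, adjusted p = 0.028) and 0.0521% and 0.0121% under chronic stress (log2 difference 2.05 ± 0.64, adjusted p = 0.011). Under acute stress Kcna1 lost its call in 3 and Kcnip4 in 4 of 10 repeats that left out 1 library. Under chronic stress alone Kcna2, Kcnt1, Kcng4 and Kcnip1 were added. These calls rested on single libraries: leaving out 1 library ended that of Kcnt1 in 5 of 7 repeats, of Kcng4 in 4 and of Kcna2 and Kcnip1 in 3 each, and the replicate block ended that of Kcnt1. Kcnip1 had 16 conversions in 23823 positions with 4sU and 0 in 17264 with DMSO, at least 3.86-fold higher against a floor of 3 conversions over the DMSO group. The pooled rates and this floor cover counting error only.

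Between stress and baseline among the 4sU mice, with libraries scaled to their overall rate, no member's conversion was called. The chronic comparison crosses the division between libraries, and the acute one does not. Acute stress against baseline gave 0 of 55, beside 0.0115% of all genes, and chronic stress gave 0 of 55, beside 0.3%. Under acute stress 3 members had an unadjusted edgeR p under 0.05, 5.45% beside 6.56% of all genes. Under chronic stress 5 had, 9.09% beside 8.13%. No second tool was run for conversion. Under acute stress the smallest p belonged to Kcng4, with a log2 difference of -2.17 ± 0.76 (edgeR, adjusted p = 0.70). Kcnf1, whose level fell under acute stress in the DMSO mice but overlapped between the 2 groups of 4sU mice, had conversion rates of 0.0103% to 0.0358% in the baseline 4sU libraries and 0.0166% to 0.0378% in the acute ones, which overlapped each other and the 0.0240% to 0.0455% of the baseline DMSO libraries. Leaving out libraries moved the count above background under acute stress to 3 without acute 4sU library 1 and to 5 without acute DMSO library 5. Under chronic stress it moved to 7 without chronic DMSO library 3. Shares of all genes in these repeats are not reported here. Kcnc2 and Kcnab2 kept their calls in all 3 states in each such repeat, and Kcnk9 lost its baseline call in 4 of 9. Of 18 partner genes tested for conversion 0 were called at baseline, 3 under acute stress and 4 under chronic stress, beside 7.33%, 11.8% and 14.3% of 8662 genes.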

How the data were processed

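T-to-C conversion and gene expression were measured in 26 amygdala libraries, which the labels place in 6 groups of stress and injection. The authors deposited exon counts per gene as whole numbers without normalization, in a table of baseline and acute libraries and a table of baseline and chronic ones, whose 9 shared baseline columns differed in 0 values. Per the file headers, they also deposited slamdunk 0.4.3 tables of T-to-C conversions and covered T positions per 3′ UTR interval, with the conversion rate as a fraction and reads as CPM. Tools named without roles in the submitters' processing notes were HISAT2 2.1.0, featureCounts 2.0.1, SAMtools 1.9 and cutadapt 3.1, and the build was mm10. The strand setting and multiple-match treatment were not given in the sources used here. Auditory cortex libraries are not analysed here.

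The exon counts went into edgeR 4.0.16 (R 4.3.3) with TMM, filterByExpr and robust quasi-likelihood fits, 1 for each table with a coefficient per group (two-sided, Benjamini-Hochberg over all genes tested, threshold 0.05). Conversions were tested likewise over the 6 groups with log covered T as the offset, using the interval with the most covered positions per gene. Levels are CPM, counts scaled by TMM over all libraries. A level difference of a gene with few counts is less precise than that of an abundant one. The fits were tested on simulated data that held neither uneven tissue make-up nor the division between libraries. That test therefore cannot show how reliable the calls are here.

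The members, roles and lists were chosen with earlier results of these data known. Genes named by rule were 20 fixed genes, every member called in the acute, chronic DMSO and difference tests (beyond 20 the 20 smallest p), the 8 largest rises and falls in the other comparisons, the 3 highest per role and the members called for conversion. Kcnk5, the partner genes and threshold neighbours were named after their values were seen. Some members count in the totals but their own results are not reported here. The lowest chi-square per degree of freedom between replicate libraries was 3.65, so none was a duplicate. The highest were 86.9 to 118.9, for acute DMSO library 2 against each other library of its group. Replicate numbers were shared across groups, but in 0 of 15 pairs of groups did all same-numbered libraries deviate together (correlation over 0.1). Alternatives were DESeq2 1.42.0, RLE scaling, no low-count filter, 3′ UTR reads, other sets of groups, the replicate block and leaving libraries out.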

Additional observations from a re-analysis of the deposited data

Results flagged for a closer look

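Of 295 checks, 59 named potassium channel genes in groups of 4 or 5 libraries, 15 found a library set apart from the rest of its group by Dixon's test (5.08%), and chance marks about 1 in 20. In the baseline DMSO group Kcnab1 was 302 CPM in library 4 against 191 to 209 CPM, Kcng1 was 27.8 CPM in library 2 against 24.8 to 25.3 CPM, Kcnh1 was 67.3 CPM in library 4 against 56.3 to 57.7 CPM, Kcnk2 was 104 CPM in library 4 against 68.2 to 73.7 CPM and Kcnn3 was 35.9 CPM in library 4 against 39 to 39.2 CPM. In the chronic 4sU group Kcnc4 was 59.8 CPM in library 1 against 41.3 to 43.6 CPM and Kcnj13 was 4.21 CPM in library 3 against 24.8 to 28 CPM. In the acute 4sU group Kcnh1 was 90 CPM in library 4 against 64.6 to 71 CPM, Kcnip1 was 27.3 CPM in library 2 against 20.3 to 21.4 CPM, Kcnk2 was 92 CPM in library 4 against 69.1 to 71.7 CPM, Kcnma1 was 90.1 CPM in library 1 against 60.5 to 66.4 CPM and Kcnq5 was 112 CPM in library 2 against 122 to 124 CPM. In the acute DMSO group Kcnj6 was 28.2 CPM in library 5 against 5.25 to 7.4 CPM, Kcnk9 was 35.8 CPM in library 2 against 73.8 to 82.3 CPM and Kcnmb4 was 10.9 CPM in library 2 against 5.6 to 6.99 CPM. In baseline DMSO library 4, where Kcnab1, Kcnh1 and Kcnk2 were set apart as high and Kcnn3 as low, the striatal marker mean was 8.75 against 8.02 to 8.12 in the other 3 libraries.

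The effect of chronic stress differed between the 4sU and DMSO mice, by the edgeR interaction test, for 23 of the genes named by rule. A call in this test was itself a rule for naming, so this number is not a result. Over all 85 members 24 were called, 28.2% beside 38% of all genes. The test crosses the division between libraries. On the log2 scale the difference was more positive in the 4sU mice for Kcnip4 (0.44), Kcng4 (0.96), Kcnab3 (0.48), Kcna1 (0.33), Kcna2 (0.38), Kcnj10 (0.54), Kcnq3 (0.46), Kcnb2 (0.56). Among those for which it was more negative were Kcnd1 (-0.63), Kcnc4 (-0.52), Kcnj9 (-0.32), Kcnab2 (-0.61), Kcnip3 (-0.61), Kcnk12 (-0.99), Kcnh1 (-0.54), Kcnh2 (-0.61), Kcnn1 (-0.64), Kcnf1 (-0.57), Kcnj11 (-0.40), Kcnh3 (-1.02), Kcns1 (-1.18), Kcng1 (-0.65). Their adjusted p ranged from 4.7e-05 for Kcnj10 to 0.044 for Kcnc4. Some of these rested on single libraries: leaving out 1 library ended the call in 13 of 16 repeats for Kcnc4, 11 for Kcnj9, 8 for Kcnj11, 2 for Kcng1 and 1 for Kcnk12.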

How the results depend on the processing

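Across alternatives, 2381 of 2677 values of called genes kept their direction and call, 294 lost the call and 2 reversed. With 3′ UTR reads Kcnk12 turned to 0.068 (adjusted p = 0.95) in the chronic difference between injections and Kcnn2 to -0.29 (adjusted p = 0.34) between 4sU and DMSO at baseline. Of 295 counts of members 255 stayed within 1.5 times and 40 moved. For acute stress over both injections (6 called) the count was 2 with 3′ UTR reads, 3 without the low-count filter and 3 with the replicate block. It was 17 without the 5 libraries lowest by glutamatergic markers, beside 6.84% of all genes, and 1 to 11 leaving out each library. In the DMSO mice (3 called) it was 7 with DESeq2, beside 4.83% of all genes, and 0 with the 2 groups alone (Kcnf1 edgeR adjusted p = 0.14). It was 25 without the 5 libraries, beside 14.7% of all genes, and 1 to 8 leaving out each library. The difference between injections (0 called) gave 7 without the 5 libraries, beside 1.92% of all genes. Chronic stress in DMSO mice (0 called) gave 2 with DESeq2, beside 0.0716% of all genes, and 0 to 1 leaving out each library. The chronic difference (24) gave 13 with all 6 groups in 1 fit. For 4sU against DMSO at baseline (25) the count was 43 with the 2 groups alone, beside 57.7% of all genes. Conversion under acute stress (8) gave 5 without the 5 libraries, beside 7.85% of all genes, and 3 to 8 leaving out each library. Under chronic stress (12) it gave 7 to 11 leaving out each library. The chronic change in conversion (0) gave 1 without scaling to the overall rate. The cause of these moves was not tested. Where no share of all genes stands beside a count in this section, it is not reported here. Same-numbered libraries share only a number (correlations of deviations from -0.534 to 0.415), and the replicate block gave 4 for acute stress in DMSO mice, 36 for chronic stress in 4sU mice, 20 for the chronic difference and 24 for 4sU against DMSO at baseline. Depth limits the low genes: Kcne4 averaged 1.08 CPM, and conversion could be tested in 55 of 85 members.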
